A study of Mus musculus with 6 samples.

Results

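The respiratory chain of the inner mitochondrial membrane passes electrons from NADH (complex I) and succinate (complex II) through ubiquinone, complex III and cytochrome c to oxygen at complex IV, and ATP synthase (complex V) uses the resulting proton gradient to make ATP. Most subunits are encoded in the nucleus, translated in the cytosol and imported, while a small set, with core subunits of complexes I, III, IV and V, is encoded by mitochondrial DNA. The nuclear genes are commonly regulated together through factors such as NRF1, GABP and YY1 and the coactivators of the PGC-1 family, and a tumour cell can change their level when it moves between glycolysis and oxidative phosphorylation.

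The nuclear-encoded subunits were chosen by gene name, as the Nduf (a, b, c, s or v series), Sdh, Uqcr, Cox4 to Cox8 and Atp5 genes, without use of any measured value. The rule found 81 genes of the 15973 protein-coding genes in the authors' table. By name 37 belonged to complex I, 4 to complex II, 8 to complex III, 15 to complex IV and 17 to complex V. RNA-Seq had been performed on 4T1-T cells, a VM-proficient sub-clone of the mouse mammary carcinoma line 4T1, where VM (vasculogenic mimicry) is the formation of vessel-like channels by tumor cells. No gene was edited and no drug was given. All cells were kept overnight in Opti-Mem with 0.3% BSA in place of serum, received acetylated low-density lipoprotein (acLDL) carrying the dye Alexa-488 at 10 ug/mL for 4 h, and were returned to complete medium for 1 h. The acLDL-high cells were the 25% with the strongest fluorescence and the acLDL-low cells the 25% with the weakest. The middle of the distribution and cells without acLDL were not part of the comparison. There were 3 libraries of each population, from a sort repeated on 3 separate occasions, and each occasion gave a pair of acLDL-low and acLDL-high libraries. The 6 libraries are tails of a single clone, so they say nothing of how other clones vary.

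The libraries held 70263372 to 94216786 counts, so that 3 counts corresponded to 0.0323 to 0.0429 CPM (counts per 1000000 counts of the tested genes, with library sizes scaled by TMM); this limit covers counting error only. The epithelial identity of the cells could be read in 6 of 7 epithelial markers above 1 CPM, with Krt5 at 0 and a summed level of 2648 to 4041 CPM in the acLDL-low and 2883 to 4168 CPM in the acLDL-high libraries. Of 7 endothelial markers 0 exceeded 1 CPM, and Emcn and Erg were at 0. Of 9 macrophage markers 3 exceeded 1 CPM (Cd68, Cd14 and Mrc1), with Adgre1 at 0 and a summed level of 19.2 to 21.6 CPM in the acLDL-low and 20.1 to 24.4 CPM in the acLDL-high libraries. Cd14 was the one marker of these lists that was called, at 9.25, 7.89 and 11.4 CPM in acLDL-low and 12.02, 9.65 and 14.0 CPM in acLDL-high (log2 fold change 0.32, SE 0.072, adjusted p 0.0246), and its part in the results was not tested. Of 6 fibroblast markers 1 exceeded 1 CPM (Pdgfra). In bulk RNA a change in the share of cells and a change in RNA per cell cannot be told apart.

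Promoter sequences are shown first. The subunit genes varied together across the libraries, as described further on, and a link of the motifs to this was not tested. RefSeq windows of 300 bases on GRCm38.p6, from 250 bases before to 50 after the start site, were matched by symbol for 64 of the 81 genes (69 windows). The other 17 genes, among them Ndufa2, Ndufb9, Sdhc, Cox4i1 and Cox6a2, had no entry. Letters of 4 motifs were searched on both strands. The core of the NRF1 site, GCGCATGCG, was found in 8 of 69 windows (11.6%), against 1.75% of all 32851 windows of that length and 3.53% of the windows of genes tested here. Its letters and their reverse complement overlap by all but a base, so that several windows match on both strands. The ETS letters bound by GABP, CCGGAAG, were found in 16 windows (23.2%, against 8.86% and 17.1%). The YY1 letters, AAGATGGCG, were found in 7 windows (10.1%, against 1.4% and 2.93%), 6 of which held them with the first letter between bases 23 and 36 after the start site on the sense strand. TATAAA was found in 6 windows (8.7%, against 13.6% and 7.25%). Any of the NRF1, ETS or YY1 letters were present in 26 of 69 windows (37.7%, against 11.4% and 22%), namely 11 of 34 in complex I, 2 of 3 in complex II, 3 of 5 in complex III, 3 of 11 in complex IV and 7 of 16 in complex V. These are matches of letters and were not tested as binding sites.

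For each complex the window with the most of the NRF1, ETS and YY1 motifs is printed, with ties given to the gene with the highest level per kb of summed exonic length: Ndufa8 (NRF1 letters, chr2:36049289-36049588, minus strand), Sdhd (ETS, chr9:50603800-50604099, minus strand), Uqcr11 (NRF1 and ETS, chr10:80406772-80407071, minus strand), Cox6a1 (NRF1 and ETS, chr5:115348909-115349208, minus strand) and Atp5k (NRF1 and ETS, chr5:108434350-108434649, minus strand). Ndufs6 (chr13:73328433-73328732, minus strand) shows the YY1 letters just after the start site. Cox7a1 (chr7:30183921-30184220, plus strand), the muscle paralogue that was barely detected, is shown as a window without any of the 3 motifs. Most windows were of this kind, since 26 of 69 held any of them. Among those without was Atp5b, the subunit gene with the highest level (1532 CPM). A link of the motifs to level was not tested. Sequences run 5′ to 3′ on the strand of the gene, and capitals mark the motif letters.
Ndufa8: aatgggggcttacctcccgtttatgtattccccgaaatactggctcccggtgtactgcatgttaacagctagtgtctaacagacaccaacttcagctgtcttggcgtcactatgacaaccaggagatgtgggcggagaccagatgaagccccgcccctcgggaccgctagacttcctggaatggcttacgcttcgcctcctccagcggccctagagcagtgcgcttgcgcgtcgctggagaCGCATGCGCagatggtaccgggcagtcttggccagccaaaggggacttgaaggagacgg
Sdhd: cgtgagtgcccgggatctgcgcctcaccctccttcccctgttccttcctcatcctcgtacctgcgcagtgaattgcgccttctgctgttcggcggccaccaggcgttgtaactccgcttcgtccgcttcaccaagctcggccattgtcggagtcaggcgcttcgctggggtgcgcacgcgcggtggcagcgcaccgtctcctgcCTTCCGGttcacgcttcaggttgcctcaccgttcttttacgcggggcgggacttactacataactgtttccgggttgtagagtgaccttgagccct
Uqcr11: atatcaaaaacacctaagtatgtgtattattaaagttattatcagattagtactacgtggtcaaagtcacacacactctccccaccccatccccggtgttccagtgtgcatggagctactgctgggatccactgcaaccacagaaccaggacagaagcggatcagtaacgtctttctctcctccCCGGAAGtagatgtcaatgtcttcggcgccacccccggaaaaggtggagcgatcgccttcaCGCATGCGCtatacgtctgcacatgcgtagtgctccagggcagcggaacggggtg
Cox6a1: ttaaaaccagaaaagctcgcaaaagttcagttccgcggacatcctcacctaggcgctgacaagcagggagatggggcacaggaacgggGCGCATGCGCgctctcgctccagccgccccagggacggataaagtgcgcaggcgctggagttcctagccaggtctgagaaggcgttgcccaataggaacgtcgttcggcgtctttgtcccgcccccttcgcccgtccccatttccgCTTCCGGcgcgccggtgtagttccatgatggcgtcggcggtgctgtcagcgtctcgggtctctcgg
Atp5k: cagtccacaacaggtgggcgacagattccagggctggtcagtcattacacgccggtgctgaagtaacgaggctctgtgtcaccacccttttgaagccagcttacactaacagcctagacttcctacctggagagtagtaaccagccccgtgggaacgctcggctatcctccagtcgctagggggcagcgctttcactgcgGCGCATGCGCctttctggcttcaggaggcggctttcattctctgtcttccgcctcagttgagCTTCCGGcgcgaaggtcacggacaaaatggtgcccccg
Ndufs6: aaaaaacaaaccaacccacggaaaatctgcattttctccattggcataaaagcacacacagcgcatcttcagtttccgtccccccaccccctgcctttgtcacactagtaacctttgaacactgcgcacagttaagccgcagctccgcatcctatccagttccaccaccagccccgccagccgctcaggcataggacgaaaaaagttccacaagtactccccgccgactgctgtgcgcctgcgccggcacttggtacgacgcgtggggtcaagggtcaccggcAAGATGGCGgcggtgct
Cox7a1: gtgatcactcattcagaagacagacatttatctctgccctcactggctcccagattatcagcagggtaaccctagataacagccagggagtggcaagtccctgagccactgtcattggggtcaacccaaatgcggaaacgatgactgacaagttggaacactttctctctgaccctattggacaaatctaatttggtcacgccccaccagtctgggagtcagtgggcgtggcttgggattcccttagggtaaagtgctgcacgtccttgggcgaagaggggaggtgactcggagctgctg

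To ask whether cells with high acLDL uptake expressed the respiratory chain at another level than cells with low uptake, acLDL-high was compared with acLDL-low within occasions. Of the 81 genes 78 had enough counts to be tested. With edgeR's quasi-likelihood test, 0 were higher and 0 were lower in acLDL-high at a Benjamini-Hochberg adjusted p under 0.05, against 3.43% of all 12572 genes tested that were higher and 1.32% that were lower (4.75% in either direction). DESeq2 also called 0. At an unadjusted p under 0.05 there were 8 of 78 subunit genes (10.3%, against 19.4% of all genes), 7 higher and 1 lower. One of the 7, Cox7a1, passed the count filter through acLDL-high alone; without it there were 7 of 77, 6 of them higher. The lowest adjusted p was 0.141, for Uqcr10. The measurement was tight: the 95% interval of the log2 fold change lay within ±0.2 for 65 of the 78 genes and within ±0.3 for 74. The median standard error was 0.046 on the log2 scale, and the smallest change that was called in any gene was 0.15. The median absolute log2 fold change was 0.039, with 0.073 over all genes tested, which include low genes and had a larger median standard error (0.056), 0.038 in pyruvate dehydrogenase and the TCA cycle and 0.047 in mitochondrial ribosomal proteins; the difference between these was not tested.

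**Figure D1:**
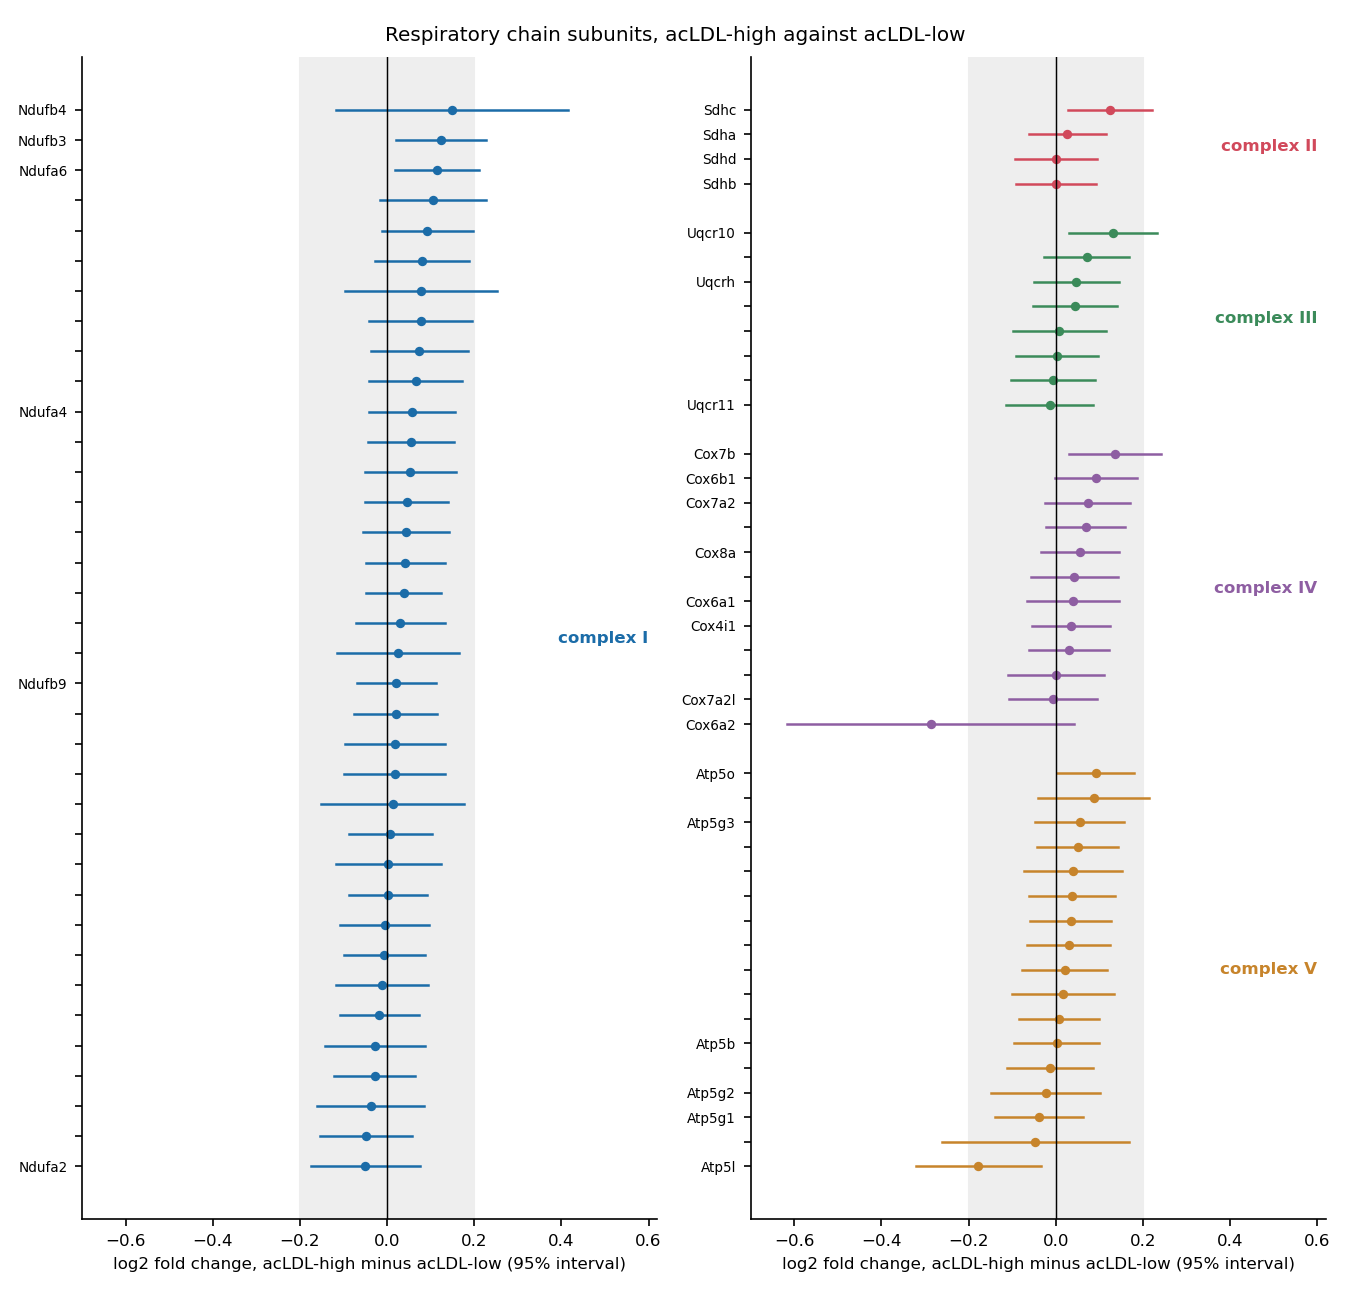
Log2 fold change (acLDL-high minus acLDL-low, x axis) with its 95% interval for the 77 tested subunit genes above 1 CPM, sorted within each complex with only some genes labelled by name; the grey band marks ±0.2. Cox7a1, at 0.119 CPM, is not drawn; the points crowd near 0, and the most negative, Cox6a2, has an interval that includes 0.

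The fitted changes leaned slightly upward. Values above 0 were found in 60 of 78 genes (76.9%, against 50.6% of all genes), and 23 were higher in acLDL-high on all 3 occasions (29.5%, against 20.9%), while 3 were lower on all 3 (3.85%, against 19.5%). Without Cox7a1 the first 2 counts were 59 and 22 of 77. The median log2 fold change was 0.03, with 0.0017 over all genes tested. The lean was not the same on each occasion. The median difference within the pair was 0.078 on occasion 1, -0.0082 on occasion 2 and 0.032 on occasion 3. Of the 78 genes 65, 35 and 50 were above 0. Over all 12572 genes tested the medians were 0.015, -0.0075 and -0.00022, with 6885, 5954 and 6263 genes above 0. With upper quartile scaling or total counts 46 genes were above 0, with a median of 0.011 or 0.012, while the median of all genes moved to -0.017. The members share their libraries and are not replicates of each other, so this lean carries no test.

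The summed level of the 81 genes was 7510, 9786 and 6742 CPM in the acLDL-low libraries of occasions 1, 2 and 3 and 7838, 9695 and 6876 CPM in the acLDL-high libraries. The populations overlapped over the whole range, and their means were 8012 ± 1583 and 8136 ± 1433 CPM (SD, n = 3). Within pairs the log2 ratio of the sums was 0.062, -0.013 and 0.029. As a share of all counts deposited for a library, without scaling, the subunit genes made up 0.672% to 0.918%, and the pair members differed far less than the occasions.

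**Figure D2:**
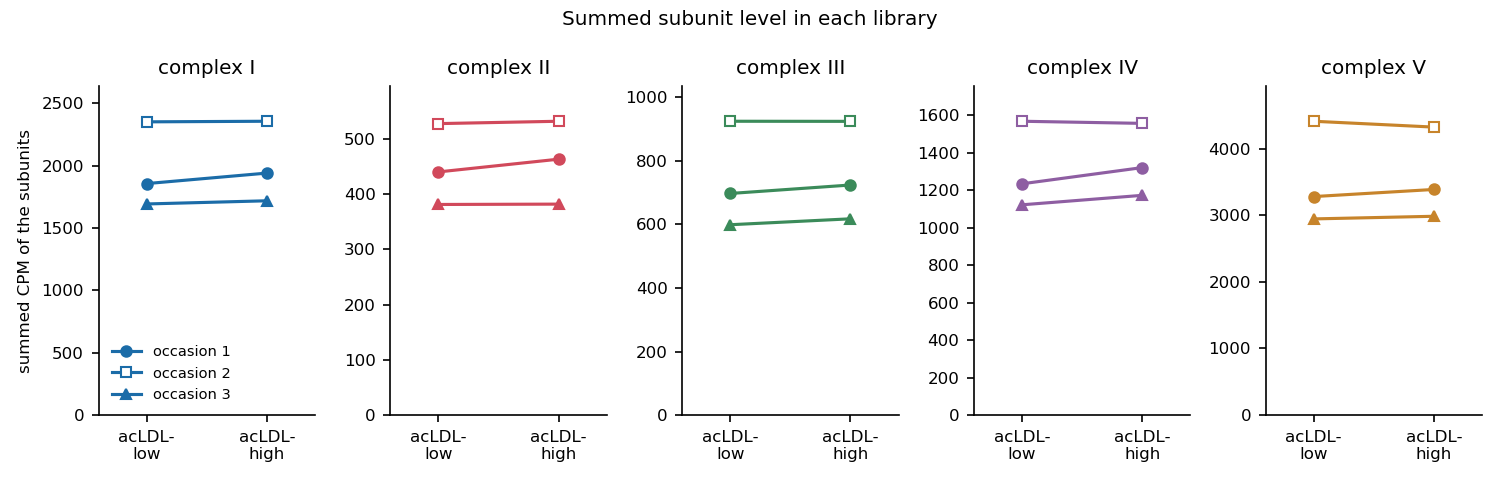
Summed CPM of the subunit genes of each complex (y axis from 0, a scale for each panel) in the acLDL-low and acLDL-high libraries, with a line joining the pair of each occasion. The lines run nearly flat, while occasion 2 lies above occasions 1 and 3 in all 5 panels.

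Complex I takes electrons from NADH and is the largest of the 5. Its summed level was 1968 ± 343 CPM in acLDL-low and 2006 ± 324 CPM in acLDL-high (SD, n = 3), a log2 ratio within pairs of 0.064, 0.0029 and 0.022. None of its 36 tested genes passed (0 higher, 0 lower), with 2 at an unadjusted p under 0.05. The fold changes ran from -0.05 to 0.15 on the log2 scale with a median of 0.028, and 27 were above 0. Ndufb9, an accessory subunit of the membrane arm, had the highest level per length at 234 CPM per kb. It was at 237, 270 and 210.3 CPM in acLDL-low and 250.4, 266 and 212 CPM in acLDL-high, so the populations overlapped (log2 fold change 0.021, SE 0.042, adjusted p 0.839). Ndufb4, also of the membrane arm, had the most positive change. It was at 3.0, 3.35 and 2.07 CPM in acLDL-low and 3.39, 3.39 and 2.5 CPM in acLDL-high. This level was low and the interval wide (0.15, 95% interval -0.12 to 0.41, adjusted p 0.555). Ndufa2, of the matrix arm, had the most negative, from 21.1 ± 3.48 to 20.4 ± 2.99 CPM (-0.05, SE 0.057, adjusted p 0.695). Ndufa6 and Ndufb3, named because of their unadjusted p and so chosen after the values were seen, were higher on all 3 occasions by 0.11 (SE 0.045, adjusted p 0.18) and 0.12 (SE 0.047, adjusted p 0.172). Both are accessory subunits.

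Ndufa4 was counted here by its name, although the protein is now placed in complex IV. It was at 102 ± 39.6 CPM in acLDL-low and 105 ± 34.2 CPM in acLDL-high (0.057, SE 0.046, adjusted p 0.544). Its paralogue Ndufa4l2, known for its induction by hypoxia, had 0, 0 and 6 counts in acLDL-low and 3, 0 and 6 in acLDL-high. It was too low to be tested.

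Complex II, succinate dehydrogenase, also works in the TCA cycle and has no subunit encoded by mitochondrial DNA. Its 4 genes summed to 450 ± 73.7 CPM in acLDL-low and 459 ± 75.2 CPM in acLDL-high, with log2 ratios within pairs of 0.074, 0.012 and 0.0024. None of the 4 passed (0 higher, 0 lower), and their median log2 fold change, 0.014, turned to -0.0046 under upper quartile scaling and total counts. Sdha, the flavoprotein that oxidizes succinate, was at 170 ± 20.3 and 173 ± 20.8 CPM (log2 fold change 0.026, SE 0.041, adjusted p 0.788). Sdhb, the iron-sulfur subunit, was at 132 ± 28.3 and 133 ± 31.6 CPM, and Sdhd, a membrane anchor, at 83.5 ± 19.2 and 83.2 ± 16.2 CPM; their log2 fold changes were 0.0014 and 0.0015, with a sign that turned negative under upper quartile scaling and total counts. Sdhc, the other anchor, stood out within the complex. It was at 66.2, 72.0 and 56.2 CPM in acLDL-low and 76.1, 75.6 and 60.3 CPM in acLDL-high, higher in each pair while the populations overlapped (0.12, SE 0.045, adjusted p 0.146). Per kb of summed exonic length Sdhd was at 67.7 CPM and Sdhb at 59.2 CPM, but per kb of the principal transcript Sdhb, at 116 CPM, lay above Sdhd, at 67.7 CPM, so the order of these genes rests on the length used. Sdhc was the lowest by either length, at 20.8 and 21.4 CPM per kb.

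Complex III hands electrons from ubiquinol to cytochrome c. Its 8 genes summed to 741 ± 167 CPM in acLDL-low and 756 ± 156 CPM in acLDL-high, and the log2 ratios within pairs were 0.054, -0.00053 and 0.044. None of the 8 passed (0 higher, 0 lower), and their median was 0.026. Uqcr10, a small subunit of the complex (chromosome 11, 4701973 to 4704342 of GRCm38), had the most positive change of the complex and the lowest adjusted p of all subunit genes. It was at 35.5, 48.3 and 29.4 CPM in acLDL-low and 38.3, 52.4 and 32.9 CPM in acLDL-high. It was higher in all 3 pairs, but the populations overlapped, and the occasions differed more than the populations (0.13, SE 0.046, adjusted p 0.141). Uqcr11, another small subunit, had the most negative value, from 53.8 ± 16.2 to 53.1 ± 14.8 CPM (-0.014, SE 0.046, adjusted p 0.909). Uqcrh, the hinge protein between the cytochromes c1 and c, had the highest level per length at 99.1 CPM per kb and was at 121 ± 25.9 and 124 ± 19 CPM (0.047, SE 0.045, adjusted p 0.616).

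Complex IV, cytochrome c oxidase, reduces oxygen, and several of its nuclear subunits exist as a ubiquitous form and a form of muscle, testis or lung. The 15 genes summed to 1308 ± 232 CPM in acLDL-low and 1350 ± 194 CPM in acLDL-high, and the log2 ratios within pairs were 0.098, -0.01 and 0.064. None of the 13 tested genes passed (0 higher, 0 lower). Their median log2 fold change, 0.043 (0.042 without Cox7a1), was the highest of the 5 complexes in this fit. On all 3 occasions 7 of the 13 were higher, against 20.9% of all genes tested. Without Cox7a1, which passed the count filter through acLDL-high alone, it was 6 of 12. This difference from all genes was not tested. Cox7b, chosen after the values were seen, was at 68.7, 92.7 and 51.0 CPM in acLDL-low and 78.9, 93.4 and 58.7 CPM in acLDL-high. The difference was in pairs 1 and 3 and nearly absent from pair 2 (0.14, SE 0.049, adjusted p 0.143). Without occasion 2 it was 0.20 with an adjusted p of 0.0167, the only subunit gene called under any alternative tried.

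The paralogues of complex IV differed widely in level in these mammary carcinoma cells. The ubiquitous forms were abundant: Cox4i1 was at 263 ± 38.3 CPM in acLDL-low and 269 ± 35.2 CPM in acLDL-high, Cox6a1 at 160 ± 35.2 and 164 ± 27.1 CPM, Cox6b1 at 91.3 ± 29.8 and 96.5 ± 27.2 CPM, and Cox7a2 at 67.2 ± 16 and 70.3 ± 13.8 CPM. Their log2 fold changes were 0.034, 0.041, 0.092 and 0.074, with adjusted p of 0.71, 0.709, 0.271 and 0.41. Cox8a had the highest level per length of the complex at 324 CPM per kb and was at 197 ± 31 and 204 ± 32.8 CPM (0.056, SE 0.041, adjusted p 0.503). Cox7a2l, which takes part in joining complexes III and IV rather than in a single oxidase, was at 116 ± 12.3 and 116 ± 20.2 CPM (-0.0062, SE 0.046, adjusted p 0.96). The forms of other tissues were near or at the detection limit. Cox4i2, of lung, had 0, 5 and 4 counts in acLDL-low and 1, 2 and 0 in acLDL-high, and Cox6b2, of testis, had 4, 2 and 2 against 2, 1 and 3; neither was tested.

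The muscle forms were low but counted. Cox6a2 was at 3.71, 3.08 and 0.986 CPM in acLDL-low and 3.19, 2.84 and 0.581 CPM in acLDL-high. It was lower in each pair, and occasion 3 lay far below the others in both populations (-0.29, SE 0.15, adjusted p 0.33). Cox7a1 had 2, 6 and 6 counts in acLDL-low and 12, 10 and 22 in acLDL-high, or 0.0264, 0.0743 and 0.0857 against 0.151, 0.139 and 0.237 CPM. The populations did not overlap, but the gene passed the count filter, set at 0.131 CPM without scaling, in 3 acLDL-high and 0 acLDL-low libraries. A gene kept in this way had to be higher in acLDL-high, and its fitted change (1.48, adjusted p 0.176) is given for completeness only. In the other 77 tested genes the populations overlapped. The share over all genes tested was not counted, so this overlap is not read as a trait of the subunit genes. The level per length of Cox7a1, 0.222 CPM per kb, lay far below the 72.8 CPM per kb of Cox7a2.

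**Figure D3:**
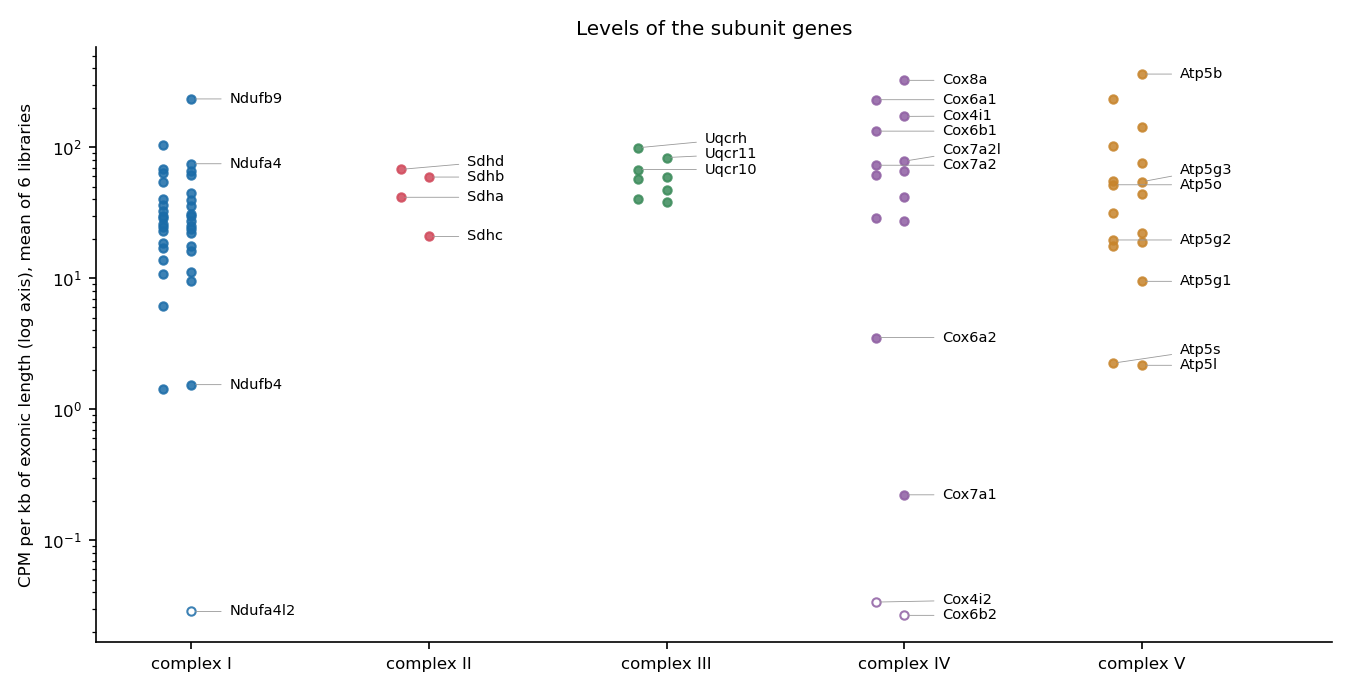
Mean level over the 6 libraries in CPM per kb of exonic length (log axis) for the 81 subunit genes by complex, with open circles for the 3 genes too low to be tested. Most genes lie above 10 CPM per kb, and the paralogues of lung, testis and muscle lie far below the ubiquitous forms of complex IV.

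Complex V, ATP synthase, was the most abundant in summed level. Its 17 genes gave 3281, 4412 and 2946 CPM in acLDL-low and 3388, 4325 and 2985 CPM in acLDL-high, with log2 ratios within pairs of 0.046, -0.029 and 0.019. None of the 17 passed (0 higher, 0 lower), and their median was 0.02. Atp5b, the catalytic beta subunit (chromosome 10, 128083273 to 128090391), carried the highest level of all subunit genes. It was at 1434, 1930 and 1238 CPM in acLDL-low and 1478, 1865 and 1250 CPM in acLDL-high, with a log2 fold change of 0.0021 (95% interval -0.095 to 0.1, adjusted p 0.986). Atp5o, the OSCP protein of the stalk, was higher in all 3 pairs, from 98.8 ± 26.6 to 105 ± 26.7 CPM (0.091, SE 0.041, adjusted p 0.243). Of the 50-base stretches of its principal transcript, 50.3% also occur in transcripts of other genes, and its exons overlap those of other genes. The c-ring that turns with proton flow is encoded by Atp5g1, Atp5g2 and Atp5g3, whose mature proteins are the same. Atp5g3 was the highest per length at 54.5 CPM per kb, followed by Atp5g2 at 19.6 and Atp5g1 at 9.47. Per kb of the principal transcript the order was the same. Without division by length Atp5g1, at 46.5 CPM, lay above Atp5g2, at 32.8 CPM, so their order rests on that division. The log2 fold changes of Atp5g3, Atp5g2 and Atp5g1 were 0.055, -0.023 and -0.039 with adjusted p of 0.573, 0.876 and 0.706.

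Atp5l, which encodes subunit g in the membrane part of ATP synthase (chromosome 9, 44912557 to 44920742), was the subunit gene with a negative value at an unadjusted p under 0.05. It was at 17.7, 13.9 and 12.8 CPM in acLDL-low and 14.8, 12.8 and 11.5 CPM in acLDL-high, lower in each pair while the populations overlapped (-0.18, SE 0.066, adjusted p 0.164). Of the 50-base stretches of its principal transcript, 84.8% also occur in transcripts of other genes, among them 12 pseudogenes. Reads from such stretches can be split or dropped in counting. Summed with those pseudogenes, which together held 2.47 CPM in acLDL-low and 2.5 CPM in acLDL-high, the mean log2 ratio was -0.15 ± 0.046 (SD, n = 3 pairs). Pseudogenes of some other subunit genes held more. That of Ndufa12, chosen after the values were seen, held 36.0 and 39.1 CPM, beside 45.8 and 48.4 CPM of the gene. Those of Atp5g1 held 9.93 and 9.34 CPM. Shared stretches of at least 10% were found in 29 of the 81 genes, with the largest share, 87.4%, in Atp5g2, and 29 genes had exons overlapping another gene. Among the 49 tested genes with smaller shares, a subset set after the values were seen, 0 were called by edgeR. Of them 6 had an unadjusted p under 0.05, and the median log2 fold change was 0.04.

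The genes around the respiratory chain were described by the same fit. No assembly factor passed: 0 of 15 for complex I, 0 of 4 for complex II, 0 of 6 for complex III, 0 of 21 for complex IV and 0 of 4 for complex V, with medians of -0.013, -0.028, -0.006, 0.00069 and -0.041, of which those of complexes III, IV and V changed sign under some alternatives. At an unadjusted p under 0.05 there were 2, 0, 1, 1 and 0 of them, all lower. Over all genes tested 19.4% had such a p, 8.73% with a lower value. Of 7 subunits and electron carriers that the name rule leaves out, among them cytochrome c (Cycs), cytochrome c1 (Cyc1) and the electron transfer flavoproteins, 0 passed and 1 had an unadjusted p under 0.05, with a median of 0.081. Of 16 genes of pyruvate dehydrogenase and the TCA cycle 0 passed, with 2 at an unadjusted p under 0.05 and a median of 0.036. Values above 0 were found in 14 of them (87.5%), against 76.9% of the subunit genes and 50.6% of all genes tested. The upward lean was thus not particular to the subunit genes. Of 77 mitochondrial ribosomal protein genes 0 passed, 3 had an unadjusted p under 0.05, and the median was 0.0042 (-0.014 under upper quartile scaling). DESeq2 called 0 in each of these lists as well. The lists were set with earlier results of these data known.

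Of 11 tested regulators of mitochondrial biogenesis 1 had a value above 0, with a median of -0.04, but 0 passed in edgeR or DESeq2 and 1 had an unadjusted p under 0.05. The occasions differed here too: 8 of the 11 were above 0 on occasion 1, with a median of 0.022, against 2 on occasion 2 (median -0.093) and 2 on occasion 3 (median -0.046). Over all 12572 genes tested 6885, 5954 and 6263 were above 0 on occasions 1, 2 and 3. Nrf1, a factor that activates respiratory genes, was at 52.5 ± 10.9 CPM in acLDL-low and 52 ± 7.29 CPM in acLDL-high (-0.0053, SE 0.049, adjusted p 0.969). Gabpa, the DNA-binding subunit of GABP, was at 97 ± 0.653 and 94.5 ± 1.52 CPM (-0.038, SE 0.041, adjusted p 0.665). Tfam, which packages and transcribes mitochondrial DNA, was at 41.9 ± 5.14 and 40.9 ± 3.08 CPM (-0.031, SE 0.048, adjusted p 0.79). Ppargc1a, the gene of the coactivator PGC-1 alpha, had 0 to 14 counts in a library and was not tested.

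**Figure D4:**
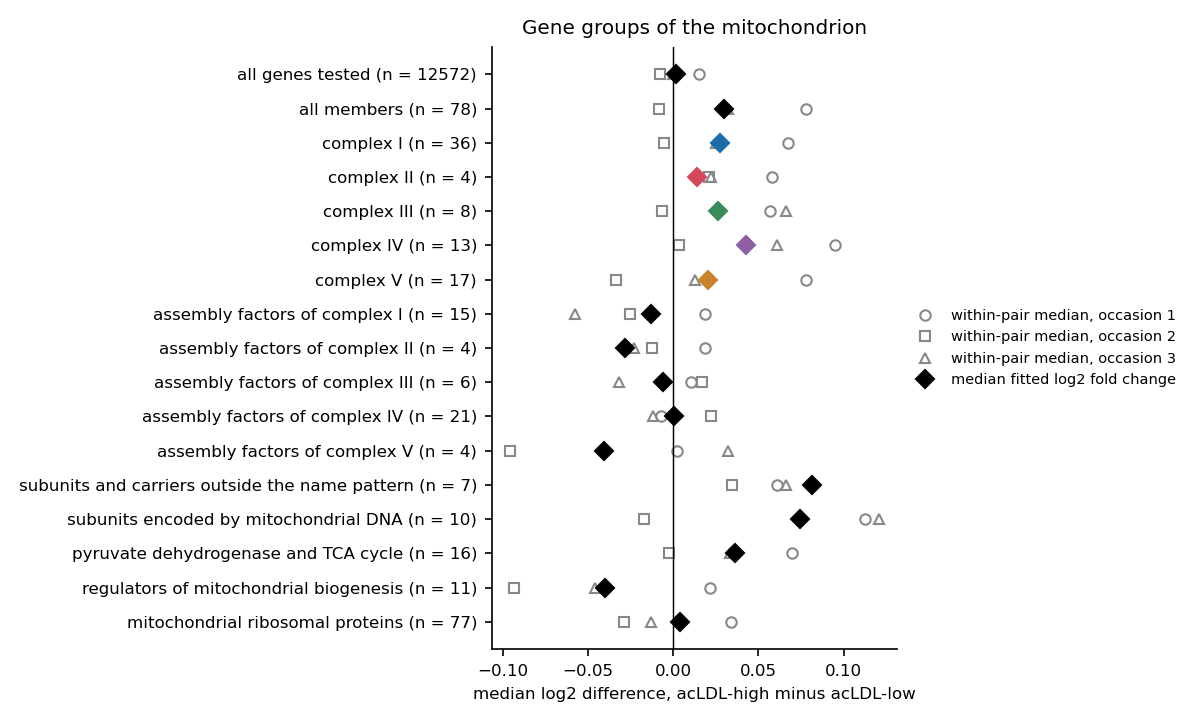
Median log2 difference between acLDL-high and acLDL-low (x axis) for all genes tested, the subunit genes, the 5 complexes and the other mitochondrial lists. Diamonds show the fitted values and open symbols the medians within the pair of each occasion; the medians of the subunit genes lie between -0.0082 and 0.078.

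Subunits encoded by mitochondrial DNA gave the only call among the lists. Of 13 genes 10 were tested and 1 was higher, mt-Nd6, a subunit of complex I encoded on the light strand. It was at 24.1, 14.1 and 16.5 CPM in acLDL-low and 31.4, 18.6 and 28.7 CPM in acLDL-high, higher in all 3 pairs with overlapping populations (0.53, SE 0.077, adjusted p 0.0020). The call was lost without the pairing by occasion (0.53, adjusted p 1) and held under the other 11 alternatives, with adjusted p between 5.5e-13 and 0.038. Its neighbours on the heavy strand, mt-Nd5 and mt-Cytb, were at 6010 ± 1073 and 11550 ± 2581 CPM in acLDL-low, and whether counting used the strand is not given in the sources used here, so a part of the mt-Nd6 counts cannot be told apart from their reads. The other tested genes of this list did not pass, and 6 of the 13 were under 1 CPM (mt-Atp6, mt-Atp8, mt-Co2, mt-Co3, mt-Nd3 and mt-Nd4l). Of the 50-base stretches of mt-Atp6, mt-Co2, mt-Co3, mt-Nd3 and mt-Nd4l, 98% to 100% also occur in annotated nuclear genes, as do 51.1% of mt-Co1 and 62.2% of mt-Nd4. The stretches of mt-Cytb, mt-Nd1, mt-Nd6 and mt-Atp8 have 0% in common with them.

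In most genes of these libraries the occasions differed by more than the sorted populations did, and the subunit genes shared one order of occasions. The comparison of occasions was chosen after the values were seen and is given without a test. Of the 78 tested genes 71 had their highest mean on occasion 2, against 5006 of all 12572 genes tested. In 68 both libraries of occasion 2 lay above the other 4 (87.2%, against 30.9% of all genes tested). In 61 both libraries of occasion 3 lay below the other 4 (78.2%, against 18.9%). This held in each complex, with 32 of 36, 3 of 4, 8 of 8, 10 of 13 and 15 of 17 genes of complexes I to V above on occasion 2. The median range between occasions was 0.55 on the log2 scale, with 0.45 over all genes tested, and it exceeded the fold change between populations in 77 of 78 genes (98.7%), a share close to the 95.4% of all genes tested. The genes that peaked on another occasion were Ndufa6, Ndufv3, Cox6a2, Cox7a1, Cox7a2l, Atp5l and Atp5s.

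The median rise from occasion 1 to occasion 2 was 0.34 and that from occasion 3 to occasion 2 was 0.53, with 0.36 and 0.57 in acLDL-low and 0.29 and 0.49 in acLDL-high. Other scalings left 0.21 to 0.33 and 0.46 to 0.52. Occasion 2 was also highest in 71 of 77 mitochondrial ribosomal protein genes and in 15 of 16 genes of pyruvate dehydrogenase and the TCA cycle. Over all genes tested it was highest in 5006 of 12572. The low place of occasion 3 was less shared. Both its libraries lay below the other 4 in 44.2% and 43.8% of these lists, against 78.2% of the subunit genes. The mitochondrial DNA-encoded genes did the opposite on occasion 2. All 7 above 1 CPM (mt-Co1, mt-Cytb, mt-Nd1, mt-Nd2, mt-Nd4, mt-Nd5 and mt-Nd6) were lowest on occasion 2 under each of the 4 scalings, with a median of -0.55 against occasion 1 and -0.42 against occasion 3.

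The ratio of the summed nuclear counts to the summed counts of these 7 mitochondrial genes does not depend on scaling. It was 0.136, 0.259 and 0.135 in the acLDL-low libraries of occasions 1, 2 and 3 and 0.134, 0.257 and 0.132 in the acLDL-high libraries. The populations gave nearly the same ratio on each occasion, while occasion 2 stood apart from the others. Within complex III the ratio to mt-Cytb, whose stretches are not shared, was 0.0506, 0.106 and 0.0493 in acLDL-low and 0.0497, 0.104 and 0.0495 in acLDL-high. Complex IV against mt-Co1 gave 0.0736, 0.147 and 0.0672 in acLDL-low and 0.0779, 0.154 and 0.0701 in acLDL-high, and complex I against its 5 mitochondrial genes 0.0751, 0.128 and 0.0807 in acLDL-low and 0.0721, 0.126 and 0.0751 in acLDL-high. What differed between the occasions in culture, sorting or library preparation is not given by the labels, and its part in these values was not tested.

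**Figure D5:**
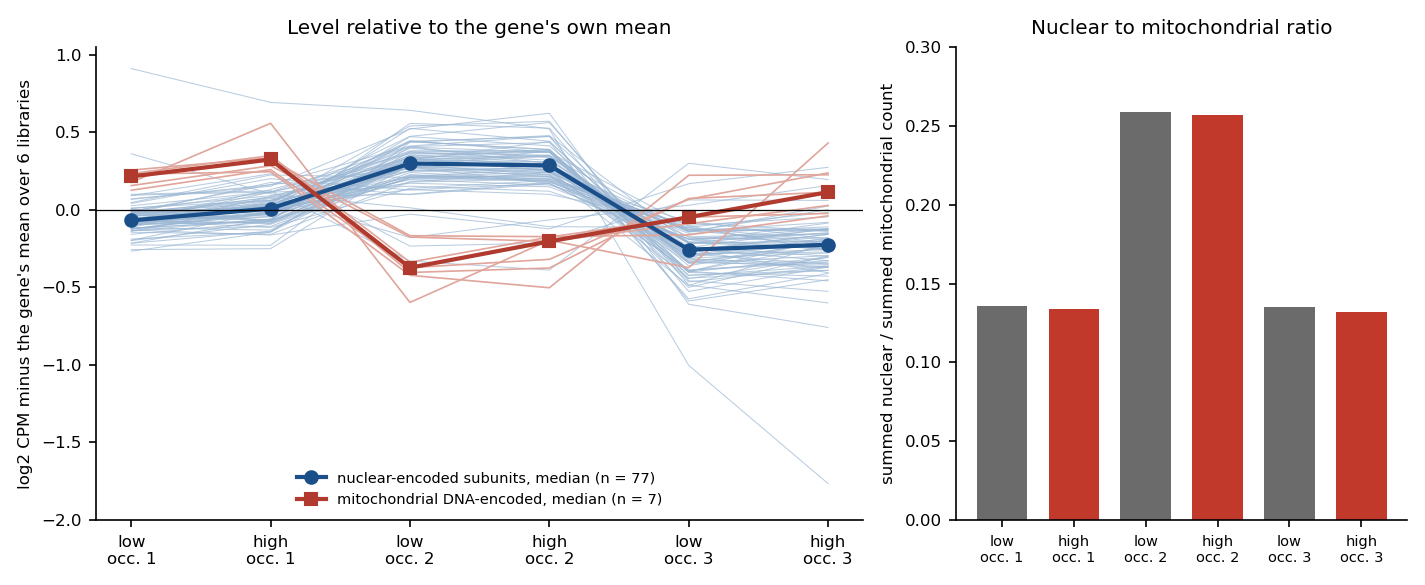
Left, log2 CPM minus the gene's own mean over the 6 libraries for 77 nuclear-encoded subunit genes above 1 CPM (blue, thick line the median) and 7 mitochondrial DNA-encoded genes (red), with libraries ordered by occasion. Right, the summed nuclear count divided by the summed mitochondrial count in each library (bars from 0, grey acLDL-low, red acLDL-high), between 0.132 and 0.136 on occasions 1 and 3 and near 0.26 on occasion 2.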

How the data were processed

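Gene expression was measured by polyA RNA-Seq in 3 acLDL-low and 3 acLDL-high libraries of 4T1-T cells. Per the submitters' processing notes, reads were aligned to mm10 with STAR 2.5.2a, counted with featureCounts 1.4.3-p1 and compared with DESeq2 1.20.0; strand use in counting is not given in the sources used here. The authors deposited raw counts per gene for 53379 gene IDs, without normalization. Their second table, for 15973 protein-coding genes, was read for gene IDs and names only; its mean normalized signal and the columns of the authors' own comparison (fold change, error, statistic and p) were not used.

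Counts of protein-coding genes were filtered (filterByExpr, leaving 12572), scaled by TMM and tested with edgeR 4.0.16 in R 4.3.3 (glmQLFit, glmQLFTest, replicate number as a block), with Benjamini-Hochberg adjustment over all genes tested and a prior count of 2 for log2 CPM. Standard errors and 95% intervals come from the same fit. The script was tested on simulated data. The series design says that the sort was repeated on 3 occasions, which the replicate numbers were taken to mark: deviations from the population means correlated at 0.795, 0.846 and 0.799 within a number and at -0.557 to -0.0882 between numbers, so the numbers pair the libraries. Chi-square per degree of freedom between libraries was 21.3 or more, so none was a duplicate. Whether the occasions used separate cultures is not stated. With replicate number as a block, p-values measure the spread of the acLDL-high minus acLDL-low difference between these pairs. The spread in level between occasions is not part of them.

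Levels between genes used exonic length from GENCODE M21 (GRCm38). Genes named in the text are those with an adjusted p under 0.05; in each complex the most positive, the most negative and the highest per length; the 4 Sdh genes; the paralogue groups; called genes of the other lists; and Ppargc1a, Nrf1, Gabpa and Tfam. Others are said to be chosen after their values were seen, or are named in counts. Members and lists were chosen with earlier results of these data known. Alternatives were no block, other scalings, filters and gene sets, DESeq2 1.42.0 with the block and shrinkage, removal of a gene length trend, a threshold of 0.01 and leaving out each occasion. Some were added after seeing the data. These left out the gene that passed the filter through a single population, kept only genes with small shares of shared stretches, or rescaled the occasion differences. Total-count scaling of named genes and of the medians of the subunit genes and complexes was also unplanned.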

Additional observations from a re-analysis of the deposited data

How the results depend on the processing

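Of 1072 values under alternatives for 101 results, 992 kept their call or, for medians, stayed within a spread. For median fold changes this was the spread between occasions, and for differences between occasions the spread between the populations. Of the 992, 10 are medians near 0 that took the other sign. No called gene reversed. Over all genes 597 were called, 126 to 869 with an occasion left out and 932 without a count filter. The count of higher subunit genes was 0 to 1 with an occasion left out (complex IV likewise, through Cox7b), and that of lower biogenesis regulators 0 to 1. Without the replicate block edgeR called 0 of 12329 genes, 45 with an unadjusted p under 0.05, and the higher mitochondrial DNA-encoded subunits went from 1 to 0; the block changed no other call of a named gene. Medians moved with an occasion left out to between 3.6e-05 and 0.041 in complex II, 0.031 and 0.093 in complex IV, -0.034 and -0.0016 for complex II assembly, -0.0201 and 0.021 for complex III assembly, -0.025 and 0.014 for complex IV assembly, and 0.062 and 0.0896 for subunits outside the name rule. Upper quartile scaling and total counts turned complex II from 0.014 to -0.00465 and -0.00457 and mitochondrial ribosomal proteins to -0.0142 and -0.014, and gave -0.0178 and -0.0177 for complex IV assembly and 0.0628 and 0.0629 for subunits outside the rule, which DESeq2 put at 0.057. Complex III assembly turned to 0.00079 with no count filter and 0.0042 with all genes of the count table, complex V assembly to 0.0036 without occasion 2, and mitochondrial ribosomal proteins to -0.013 and -0.0011 without occasions 1 and 3. Leaving out Cox7a1, chosen after seeing the data, changed no call. Log2 fold changes near 0 changed sign in 9 genes, none called. With an occasion left out Ndufb9 ran from -0.0055 to 0.042, Sdhb from -0.021 to 0.037, Sdhd from -0.022 to 0.034, Uqcr11 from -0.0503 to 0.0077, Atp5b from -0.017 to 0.026, Cox6a1 from -0.024 to 0.095, Cox7a2l from -0.062 to 0.036, Atp5g2 from -0.092 to 0.044 and Nrf1 from -0.052 to 0.046. Upper quartile scaling and total counts put Sdhb at -0.0171 and -0.017, Sdhd at -0.0171 and -0.017, and Atp5b at -0.0164 in both. Without the block Sdhd was at -0.0023 and Cox7a2l at 0.0059. With no count filter Cox7a2l was at 0.00057 and Nrf1 at 0.0015, and with all genes of the count table at 0.0039 and 0.0049. Causes were not tested.

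The comparison rested on 3 pairs, and changes smaller than about 0.15 in log2 were not called in any gene. Cox7a1 had 2 to 22 counts in a library, and 3 genes were too low to be tested. The part of depth in the precision was not tested. Genes that share stretches with other genes depend on how reads mapped to several places were treated. Differences between occasions moved in size but not in sign with the scaling.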
